A study of Rattus norvegicus with 6 samples.

Results

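The genes of cytosolic RNA and DNA sensing were followed in cerebral arteries of male rats after subarachnoid haemorrhage (SAH), in which blood enters the space between the membranes that cover the brain. The set named 9 genes: the sensors Rig1 (also written Ddx58), Ifih1, Dhx58 and Cgas, the adaptors Mavs and Sting1, the kinases Tbk1 and Ikbke, and the nuclease Trex1. A gene entered when a probe set of the array was annotated to it alone, which held for 8 of the 9, among 18166 genes represented in this way. Cgas had no such probe set in the annotation used here and is not analysed here. Each of the 8 genes had 1 probe set, so no choice between probe sets was needed. The 3 SAH arrays, numbered 1, 4 and 5 in the labels, held arteries taken 6 hours after the bleed, and the 3 sham arrays, numbered 6, 7 and 8, held arteries of sham-operated rats with no time stated. All 6 samples were total RNA of cerebral artery on Affymetrix Gene ST type arrays. The labels name no strain, age or SAH method, and do not say whether the arrays held separate animals. The p-values therefore reflect only how far these samples spread, which may be technical. Below, values are given in the order SAH 1, 4 and 5, then sham 6, 7 and 8.

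Cells carry receptors in the cytosol that recognise viral or misplaced nucleic acid. Rig1 and Ifih1 (MDA5) bind RNA with base-paired stretches and signal through Mavs, an adaptor on mitochondria, while Dhx58 (LGP2) is a related helicase without the signalling domains and tunes the others. DNA is sensed by Cgas, which makes a cyclic dinucleotide that activates Sting1 on the endoplasmic reticulum. Both branches converge on the kinases Tbk1 and Ikbke, which phosphorylate interferon regulatory factors and so start transcription of interferon genes, and Trex1 degrades cytosolic DNA. Several of these genes are themselves known to be induced by interferon.

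The values are log2 expression values made by RMA, and 36495 probe sets were tested after 190 array controls were set aside. Array medians ran from 7.31 to 7.37, and arrays correlated across probe sets at 0.970 to 0.991. All 8 genes lay above the array median on all 6 arrays. Markers of smooth muscle (6 of 8 measured) and endothelium (6 of 8 measured) lay above it on every array as well. All 6 smooth muscle markers had differences, SAH minus sham, below 0 (median -0.33), and Smtn, the smoothelin gene, was called lower (-1.18 ± 0.13 SE, limma adjusted p = 0.0197). That call ended when SAH array 4 (0.0988) or 5 (0.0701) or sham array 6 (0.125) or 7 (0.108) was left out. The median of the endothelial markers was -0.29, with 0 of 6 called (limma; 1 higher and 2 lower at an unadjusted p under 0.05). The part of these shifts in the results below was not tested. None of 12 neutrophil markers passed the test (3 higher and 0 lower at an unadjusted p under 0.05, limma). Yet 11 of the 12 had differences above 0, with a median of 1.36, the largest shift among the marker lists. Their mean varied widely: 8.68, 8.81 and 9.74 for SAH, 7.24, 7.39 and 9.24 for sham. Only 4 of the 12 neutrophil markers lay above the array median on all 6 arrays. Of 48 markers of fibroblasts and meninges, monocytes and macrophages, lymphocytes, dendritic cells, erythrocytes, neurons and glia 0 were called (limma). Over all genes 0.963% were called higher and 0.33% lower. At an unadjusted p under 0.05 (limma) 8 of the 48 were higher and 6 lower, against 8.16% and 10.5% of all genes. The 12 monocyte and macrophage markers held 5 of these 6 lower ones and 1 of the 8 higher, Ccr2 at 1.86. The medians of these lists lay between -0.43, for monocytes and macrophages, and 0.30. The mean of the thr labelling control, a spiked-in bacterial transcript, also differed among the SAH arrays, at 7.38, 8.20 and 8.40, against 7.72 to 7.82 in sham. Its part in the results was not tested.

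After SAH the RNA sensors and the DNA nuclease were higher, while no adaptor or kinase passed the test. All 3 measured sensors rose, by 4.80-fold to 6.24-fold, and Trex1 rose 3.47-fold. A gene was called when its limma p, adjusted over all 36495 probe sets by the Benjamini-Hochberg method, was under 0.05. Called higher were 4 of the 8 genes, against 0.963% of all genes. Called lower was 0 of the 8, against 0.33% of all genes, and at an unadjusted p under 0.05 the counts (limma) were also 4 higher and 0 lower, against 8.16% and 10.5% of all genes. The SAH values of the 4 called genes all lay above their sham values, as did those of 11.4% of all genes, and no gene of the 8 had all its SAH values below sham, against 15.4%. The median difference of the 8 genes, SAH minus sham, was 1.13 on the log2 scale, against -0.01 over all genes. The set was chosen with earlier results of these data known, so these counts and shares are no independent support. More cells of a type and more RNA per cell cannot be told apart in RNA of whole arteries, nor can fewer cells and less RNA per cell.

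**Figure D1:**
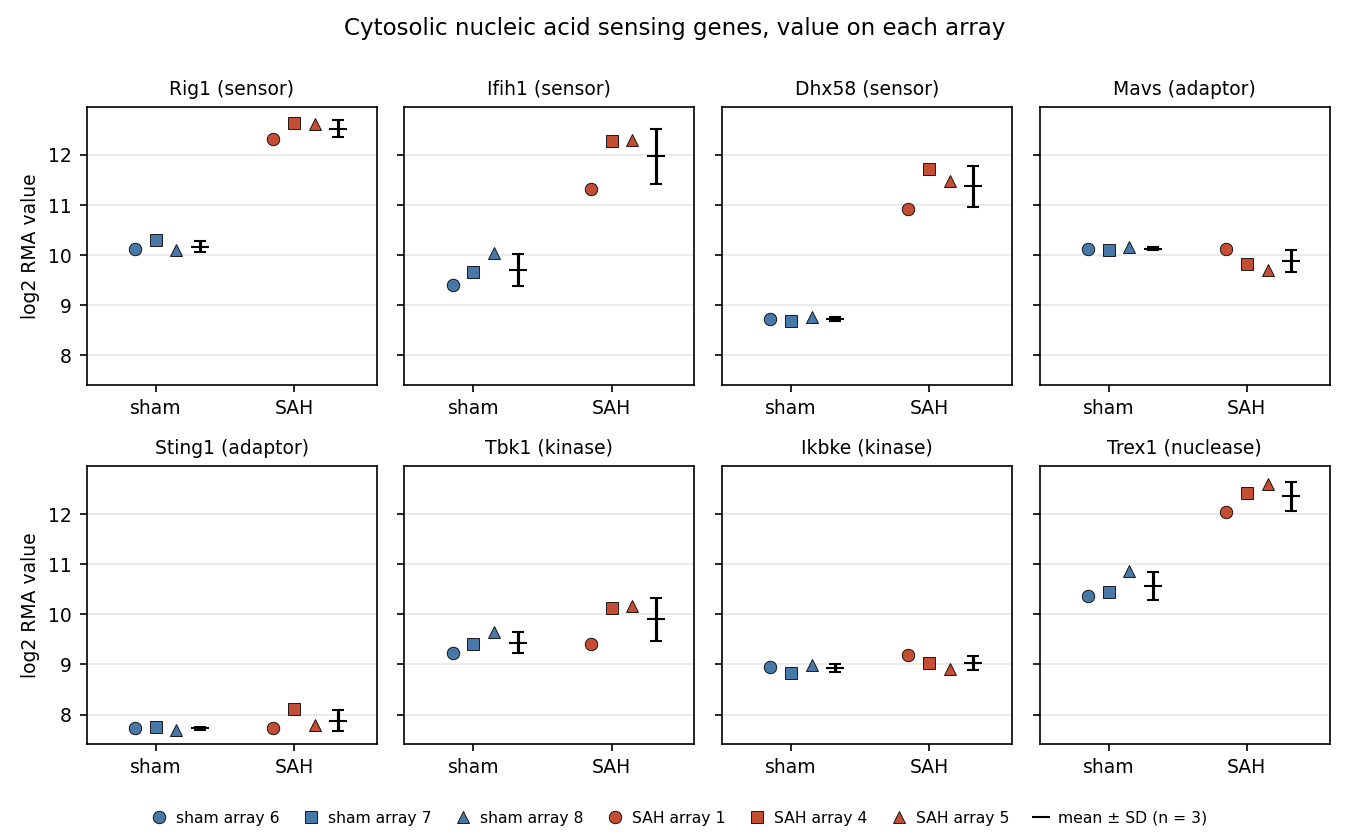
Log2 RMA value of each gene on each array, for 3 sham and 3 SAH arrays, with the group mean ± SD beside the points. Rig1, Ifih1, Dhx58 and Trex1 separate fully, whereas the groups of Mavs, Sting1, Tbk1 and Ikbke overlap. Heights of different genes are not comparable, since each probe set has its own response.

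Rig1 (probe set 17806407), the sensor of short RNA with a 5′ triphosphate, gave 12.33, 12.64 and 12.61 after SAH. Its sham values were 10.11, 10.29 and 10.10. Every SAH value lay above every sham value, with a gap of 2.03 between the nearest pair, and the arrays within a group spread over 0.32 in SAH and 0.19 in sham. The log2 difference was 2.36 ± 0.12 (SE; 95% interval 2.06 to 2.65, limma adjusted p = 0.00189), which is 5.12-fold with an interval of 4.18 to 6.27. In the RefSeq gene table the span of Rig1 overlaps that of LOC120102855, and whether that transcript adds to the probe set was not tested.

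Ifih1 (probe set 17772719), which binds long base-paired RNA, gave 11.33, 12.28 and 12.30 after SAH, compared with 9.41, 9.66 and 10.05 in the sham group. The groups did not overlap, but Ifih1 was the most variable of the 8 genes in both groups: SAH array 1 lay well below the other SAH arrays, and sham array 8 was the highest of the sham arrays. The log2 difference was 2.26 ± 0.30 (SE; 95% interval 1.56 to 2.96, limma adjusted p = 0.0304), or 4.80-fold with an interval of 2.96 to 7.79.

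Dhx58 (probe set 17661437), the regulatory helicase of the family, gave 10.92, 11.71 and 11.49 after SAH. Its sham values were nearly equal, at 8.73, 8.69 and 8.78, so the spread lay in the SAH group. The difference of 2.64 ± 0.20 (SE; 95% interval 2.17 to 3.11, limma adjusted p = 0.00436) was 6.24-fold. Of the 8 genes it had the largest difference, at rank 13 of 18166 genes by signed difference, with Rig1 at 27, Ifih1 at 32 and Trex1 at 81. The 95% intervals of the 3 sensors overlap, and whether the sensors rose by different amounts was not tested.

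Trex1 (probe set 17855826), the exonuclease that removes DNA from the cytosol, was likewise higher. The SAH values were 12.04, 12.43 and 12.60, and the sham values 10.36, 10.45 and 10.87. The lowest SAH value stood 1.16 above the highest sham value. The log2 difference was 1.80 ± 0.19 (SE; 95% interval 1.34 to 2.26, limma adjusted p = 0.0159), or 3.47-fold with an interval of 2.52 to 4.78.

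Mavs (probe set 17766437), through which Rig1 and Ifih1 signal, was not called. Its SAH values were 10.12, 9.83 and 9.70, next to sham values of 10.13, 10.10 and 10.16. SAH array 1 lay within the sham values, and SAH arrays 4 and 5 lay below them. The difference was -0.25 ± 0.13 (SE; limma adjusted p = 0.446), and its 95% interval ran from -0.55 to 0.06, which leaves out a rise of the size measured for the sensors.

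Sting1 (probe set 17725639), the adaptor of the DNA branch, gave 7.73, 8.12 and 7.79 after SAH and 7.74, 7.74 and 7.68 after the sham operation. SAH array 4 was the highest, SAH array 5 lay just above the sham values and SAH array 1 within them. The difference was 0.16 ± 0.13 (SE; 95% interval -0.14 to 0.45, limma adjusted p = 0.643), equal to a fold between 0.906 and 1.37. Its values lay not far above the array medians of 7.31 to 7.37, and RMA understates differences at low values. With Cgas not analysed here, Sting1 and Trex1 are the measured genes of the DNA branch, and 1 of these 2 was called.

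Tbk1 (probe set 17836200), the kinase shared by both branches, gave 9.40, 10.12 and 10.17 after SAH, whereas the sham samples gave 9.23, 9.42 and 9.66. SAH arrays 4 and 5 lay above every sham array, whereas SAH array 1 lay among them. The difference of 0.46 ± 0.23 (SE; limma adjusted p = 0.417) had a 95% interval of -0.07 to 1.00. Without SAH array 1 the difference was 0.71 (limma adjusted p = 0.0792), still short of the threshold. That was the lowest among the fits with an array left out, whose limma adjusted p ran up to 0.717.

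Ikbke (probe set 17684052), the inducible relative of Tbk1, gave 9.18, 9.03 and 8.90 after SAH, close to the sham values of 8.95, 8.83 and 8.98. The groups overlapped, and SAH array 1 was here the highest of all. The difference was 0.12 ± 0.11 (SE; 95% interval -0.15 to 0.38, limma adjusted p = 0.703). Its span in the RefSeq gene table overlaps LOC134481557.

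**Figure D2:**
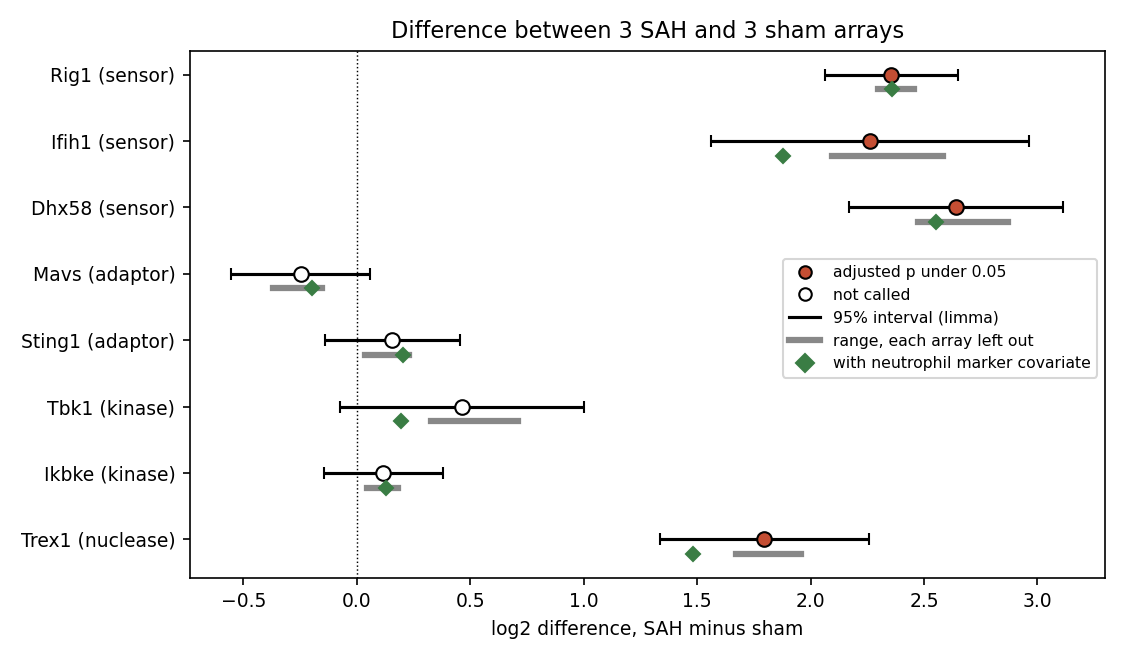
Log2 difference, SAH minus sham, of each gene with its 95% limma interval, the range over fits that leave out each array in turn (grey bar) and the value with the neutrophil covariate (diamond). The filled points of Rig1, Ifih1, Dhx58 and Trex1 lie between 1.80 and 2.64, and the intervals of the other 4 genes include 0.

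The 4 called genes shared their lowest SAH array, which was array 1 in 4 of 4. The highest was SAH array 4 for Rig1 and Dhx58 and SAH array 5 for Ifih1 and Trex1. Set against the gene's own sham mean, SAH array 1 stood higher by 2.16 for Rig1, 1.62 for Ifih1, 2.19 for Dhx58 and 1.48 for Trex1, while SAH array 5 stood higher by 2.44, 2.60, 2.76 and 2.04. Tbk1 was also lowest in SAH array 1, at -0.03 in SAH array 1 and 0.68 and 0.74 in SAH arrays 4 and 5. Mavs ran the other way, at -0.01, -0.30 and -0.43. SAH array 1 was also the lowest SAH array for the thr labelling control and for each called gene of the pathway lists below. On the first principal component, the main axis of variation among the arrays (44.3%), SAH array 1 stood at -1.06. SAH arrays 4 and 5 stood at 32.7 and 53.5 there, and the sham arrays at -38.3, -29.7 and -17.0. The share of all genes with this order was not counted, so it cannot be called particular to these genes.

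The calls of Rig1 and Dhx58 held when any 1 array was left out (highest limma adjusted p 0.0246 and 0.0379). Ifih1 kept its call without SAH array 1 (limma adjusted p = 0.00459) and lost it when SAH array 4 (0.130) or 5 (0.108) or sham array 6 (0.158), 7 (0.146) or 8 (0.0628) was left out. Trex1 kept its call without SAH array 1 (limma adjusted p = 0.00812) or sham array 8 (0.0308) and lost it when SAH array 4 (0.0988) or 5 (0.0612) or sham array 6 (0.0969) or 7 (0.102) was left out. Over these fits the difference stayed between 2.10 and 2.58 for Ifih1 and between 1.67 and 1.96 for Trex1.

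Neutrophil markers were high in sham array 8, whose marker mean of 9.24 exceeded those of SAH arrays 1 and 4. It held the highest sham value of 6 of the 8 genes, all but Rig1 and Sting1. Relative to the gene's sham mean it stood at -0.07 for Rig1, 0.04 for Dhx58, 0.34 for Ifih1, 0.31 for Trex1 and 0.22 for Tbk1. When this marker mean entered the fit as a covariate, Rig1 differed by 2.36 ± 0.17 (SE) and kept its call (limma adjusted p = 0.0296). In that fit Dhx58 differed by 2.55 ± 0.26 and Trex1 by 1.48 ± 0.16 (limma adjusted p = 0.0575 for each), and Ifih1 by 1.88 ± 0.31 (0.126). Tbk1 differed by 0.19 ± 0.25 there. Without the covariate the differences were 2.64 ± 0.20 for Dhx58, 1.80 ± 0.19 for Trex1 and 2.26 ± 0.30 for Ifih1. Why calls ended with the covariate was not tested.

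To ask whether sensors and adaptor changed unequally, the log2 value of Mavs was subtracted from that of each RNA sensor within each array. This value is not a ratio of RNA amounts, since probe sets respond differently, but its shift between groups compares the changes. For Rig1 it was 2.21, 2.82 and 2.91 after SAH and -0.01, 0.20 and -0.06 in the sham group. The shift between group means was 2.60 for Rig1, 2.51 for Ifih1 and 2.89 for Dhx58, with no overlap between groups for any of the 3 sensors. Since Mavs itself differed by only -0.25, these shifts largely repeat the sensors' own differences and are no separate support. The share of other gene pairs without overlap was not counted. In an exact two-sided permutation test over the 20 assignments of arrays each gave p = 0.1, the smallest that 3 against 3 arrays allow (0.133 after Benjamini-Hochberg adjustment over 4 pairs). For Ikbke minus Tbk1 the groups overlapped, with a shift of -0.35 (exact permutation p = 0.4). The planned comparison of Cgas with Sting1 was not made.

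**Figure D3:**
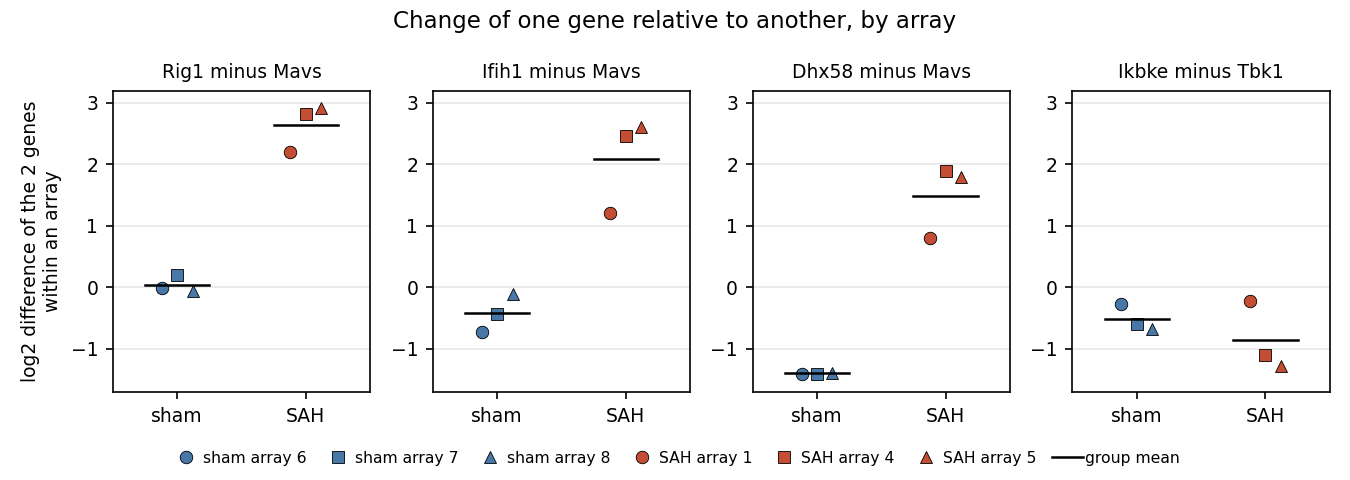
Log2 value of one gene minus that of another within each array, for 3 sham and 3 SAH arrays, with lines at the group means. The 3 sensors stand 2.51 to 2.89 higher relative to Mavs in SAH than in sham, and Ikbke relative to Tbk1 overlaps between groups.

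Promoter sequence is shown for Ifih1 and Trex1, which rose, and for Mavs, which did not pass, because the first of these holds a match to the interferon-stimulated response element (ISRE) next to its start. RefSeq promoters on GRCr8 were matched for 5 of the 9 genes: Ifih1, Mavs, Sting1, Tbk1 and Trex1. The 250 bases before the annotated start were searched on both strands for GAAANNGAAA (ISRE), TTCNNNGAA (the gamma-activated site, GAS) and the kappaB motif. Capitals mark a match, and each sequence reads 5′ to 3′ in the direction of the gene, Ifih1 from chr3:67683969-67684218 (minus strand), Trex1 from chr8:118586383-118586632 (minus strand) and Mavs from chr3:138904562-138904811 (plus strand).
Ifih1: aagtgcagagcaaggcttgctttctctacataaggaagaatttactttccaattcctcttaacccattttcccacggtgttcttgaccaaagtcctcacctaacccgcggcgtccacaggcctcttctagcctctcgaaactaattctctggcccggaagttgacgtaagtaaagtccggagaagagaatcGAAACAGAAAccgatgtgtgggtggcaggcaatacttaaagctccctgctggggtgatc
Trex1: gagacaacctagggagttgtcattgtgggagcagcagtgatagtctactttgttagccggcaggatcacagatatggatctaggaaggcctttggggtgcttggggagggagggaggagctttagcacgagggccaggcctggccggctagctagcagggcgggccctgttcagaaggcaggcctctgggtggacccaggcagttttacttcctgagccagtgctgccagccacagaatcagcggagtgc
Mavs: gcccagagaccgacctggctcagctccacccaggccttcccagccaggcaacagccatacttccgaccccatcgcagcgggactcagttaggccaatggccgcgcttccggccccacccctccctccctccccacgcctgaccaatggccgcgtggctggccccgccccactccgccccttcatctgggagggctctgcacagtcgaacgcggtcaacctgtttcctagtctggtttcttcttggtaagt
The match in Ifih1 reads GAAACAGAAA and begins 59 bases before the start. No match to any of the 3 motifs lay in the windows of the other 4 genes, Trex1 included, which says only that these letters are not there. Among 27457 promoter windows of the same length 3.29% held the ISRE letters, 7.52% the GAS letters and 6.41% the kappaB motif. The ISRE letters can overlap themselves in longer GAAA repeats, and a match is no evidence of binding.

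The genes most like the sensors over the 6 arrays were found by the root mean square distance between log2 values, each centred on its own sham mean. Irf7, a transcription factor of the interferon response, was closest to Dhx58 (distance 0.15), followed by RT1-T24-3, of the rat MHC class I region, and Usp18, which removes ISG15 from proteins. For Rig1 they were Ifgga2l1, an interferon-inducible GTPase (0.11), Isg20, an antiviral exonuclease, and Irf7. Ifih1 was closest to Samhd1, a dNTP-degrading enzyme (0.08), then Ifgga2l2 and Nlrc5, the regulator of MHC class I genes. The nearest genes to Mavs were Cep95, Mcpt8l2 and Ormdl2, at 0.02 to 0.03, and none of them was called. Mcpt8l2 lay at 6.36 to 6.80, below the array medians. Since the distance includes the shift between groups, near genes share the difference of their member by selection. Their calls, or lack of calls, are therefore no separate support. Members of the MHC class I and Ifgga families can be near-identical, which makes the source of their signal uncertain.

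The rest of the pathway was read from 4 lists with 82 genes, of which 69 were measured. Of these 7 rose (10.1%, against 0.963% of all genes) and 0 fell (limma). At an unadjusted p under 0.05, 16 were higher (23.2%, against 8.16% of all genes) and 8 lower (11.6%, against 10.5%). The median difference of the 69 genes was 0.05, against -0.01 over all genes. The lists were chosen with earlier results of these data known, so these shares are no independent support.

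Among 17 regulators of the RNA sensors and Mavs, 2 rose and 15 did not pass. Trim25, a ubiquitin ligase that activates Rig1, gave 11.74, 12.14 and 12.19 after SAH against 10.67, 10.59 and 10.70, without overlap (difference 1.37 ± 0.14 SE, limma adjusted p = 0.0116). Zc3hav1, a zinc finger antiviral protein, differed by 1.30 ± 0.20 (limma adjusted p = 0.0461), a call that ended when array medians were subtracted (1.29, limma adjusted p = 0.0509). The other named genes of the list were not called: Prkra at -0.47 ± 0.12, Nlrx1, a mitochondrial inhibitor of Mavs, at -0.39 ± 0.11 and Mex3c, a ubiquitin ligase, at 0.35 ± 0.11. The list's median was -0.05.

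In the list of DNA sensors and Sting1 partners 1 of 19 rose. This was Zbp1, a sensor of Z-form nucleic acid, which gave 11.20, 11.63 and 11.74 after SAH against 8.22, 8.24 and 7.98 (difference 3.38 ± 0.16 SE, limma adjusted p = 0.00189). Mnda, a protein of the interferon-inducible DNA-binding family, differed by 1.14 ± 0.23 (limma adjusted p = 0.0974). It was called without SAH array 1 (limma adjusted p = 0.00917), a fit in which genes called higher went from 175 to 487. With the neutrophil covariate Mnda differed by 0.91 ± 0.28 (limma adjusted p = 0.394). Genes known to regulate Sting1 gave values in both directions, none called: Rhbdf2 at 0.90 ± 0.24, Stim1 at -0.56 ± 0.14 and Zdhhc1 at -0.50 ± 0.13. The median of this list was -0.09.

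Of 20 genes for kinase scaffolds and transcription factors only Irf7 passed, with values of 12.20, 12.64 and 12.67 after SAH against 9.97, 10.05 and 9.87 (difference 2.54 ± 0.15 SE, limma adjusted p = 0.00221). Irf3, the factor that is present in resting cells and phosphorylated by Tbk1, was not called (-0.23 ± 0.10, adjusted p = 0.366). The scaffold genes of Tbk1 had differences above 0 without a call, with Azi2 at 0.78 ± 0.20, Tank at 0.44 ± 0.15 and Tbkbp1 at 0.30 ± 0.09. For Azi2 the limma adjusted p was 0.159, and 0.0131 without SAH array 1. With the neutrophil covariate Azi2 differed by 0.60 ± 0.25 (limma adjusted p = 0.533). Irf5, Traf2 and Traf3, also not called, stood at 0.62 ± 0.17, 0.44 ± 0.15 and 0.36 ± 0.15. Ifnb1, the interferon beta gene that the pathway controls, gave 6.08, 6.07 and 6.01 after SAH against 6.17, 6.08 and 6.13 in sham. Its difference was -0.08 ± 0.09 (95% interval -0.29 to 0.14, adjusted p = 0.764), at values below the array medians of 7.31 to 7.37, where RMA understates differences. In this list 15 of 20 differences were above 0, with a median of 0.17, against 8599 of 18166 over all genes.

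Among 13 nucleases and RNA-processing genes that limit sensing, 3 rose beside Trex1, which is counted apart. Samhd1 gave 10.23, 11.23 and 11.36 after SAH against 8.46, 8.76 and 9.04 (difference 2.18 ± 0.31 SE, limma adjusted p = 0.0390). Adar, which edits base-paired RNA so that Ifih1 ignores it, differed by 1.22 ± 0.14 (limma adjusted p = 0.0204), and Pnpt1, which degrades RNA in mitochondria, by 1.35 ± 0.18 (0.0314). SAH array 1 was the lowest SAH array for each of these 3 genes. Rnaseh2c, a subunit of the enzyme that cuts RNA paired with DNA, stood at -0.31 ± 0.10, and Dnase2, the lysosomal DNase, at -0.36 ± 0.17, neither called. The median was 0.08.

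Among the 7 pathway genes called, Irf7 and Zbp1 kept their call without any 1 array and with the neutrophil covariate. The number called was 9 without SAH array 1, 3 without sham array 8 and 2 when SAH array 4 or 5 or sham array 6 or 7 was left out, and 2 with the neutrophil covariate. Calls over all genes moved as well, so these moves cannot be called particular to the pathway. Genes called higher numbered 175 in the main fit and 487 without SAH array 1. They numbered 40 without SAH array 4 and 23 with the covariate (limma).

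**Figure D4:**
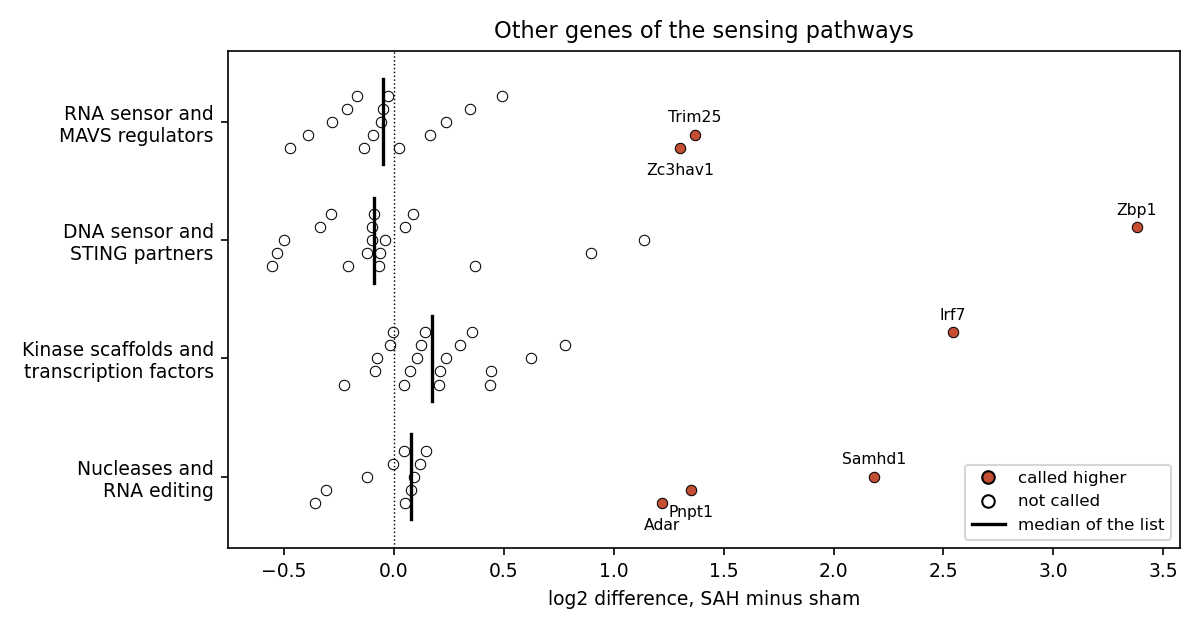
Log2 difference, SAH minus sham, of each measured gene in the 4 pathway lists, with a line at each list's median and filled points for genes called higher. The 7 called genes lie between 1.22 and 3.38, while the medians of the lists lie between -0.09 and 0.17.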

How the data were processed

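Arrays held cerebral artery RNA of 3 SAH and 3 sham samples, labelled from 6 µg of total RNA each. The deposited values are log2 values, made by the authors with Affymetrix Expression Console 1.1.2 and RMA, per the submitters' processing notes. RMA corrects background, applies quantile normalization and summarises probes, so a general change in RNA amount cannot be seen. For its settings, and for the genome build, the sources used here give nothing. Depth does not apply to arrays, whose number limits the precision. Of 36685 deposited probe sets 36495 were tested. GEO's platform annotation, updated through RefSeq (GRCr8), named 1 gene for 18511 of them (18166 genes, each by its brightest probe set), several for 575 and none for 17409.

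SAH and sham were compared by limma (version 3.58.1, R 4.3.3) through lmFit and eBayes, two-sided and without covariates, and p-values were adjusted by Benjamini-Hochberg over the 36495 probe sets with a threshold of 0.05. Values are mean log2 values or differences with limma's SE, and n = 3 per group. The test was checked on data simulated with independent normal noise for each probe set. Variation shared by the genes of an array was not part of that check. The named genes were the 9 members, the 5 of each pathway list with the smallest p, a panel of pathway genes and the 3 nearest genes to each RNA sensor and Mavs. Members, lists and alternatives were chosen with earlier results of these data known. The alternatives were a filter on dim probe sets, repeated quantile normalization, subtraction of array medians, array weights, trend and robust options of eBayes, a threshold of 0.10, a minimum log2 difference of 1, other ways to represent a gene, the neutrophil marker mean as covariate and each array left out.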

Additional observations from a re-analysis of the deposited data

How the results depend on the processing

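The 8 differences kept their direction in every alternative run. It could not change with the filter, the eBayes options, the looser threshold, the minimum difference or the other ways to represent a gene, which left the differences as they were. With an array left out the lowest differences were 0.04 for Sting1 and 0.04 for Ikbke. The 4 genes called higher were also called with the filter on dim probe sets, repeated quantile normalization, array medians subtracted, trend and robust options, and array weights. The looser threshold and the minimum difference could not end their calls, since all 4 differences exceed 1, and the other ways to represent a gene left their values as they were, since each has 1 probe set. The count fell to 1 with the neutrophil marker mean as covariate and ran from 2 to 4 with an array left out, and 0 were called lower throughout. Pathway genes called higher numbered 2 with the covariate and 2 to 9 with an array left out. Over all genes 175 were called higher and 60 lower. With the filter on dim probe sets these were 359 and 313, with array weights 266 and 107, and at an adjusted p under 0.10 321 and 209. Genes called lower numbered 121 with trend and robust options and 20 with the minimum difference. With the covariate 23 were higher and 0 lower, and with an array left out 29 to 487 were higher and 0 to 183 lower. The cause of these moves was not tested. Relative to Mavs, the shifts of the sensors stayed above 0 in each alternative run. This followed from the sensors' own differences, which stayed above 0, and that of Mavs, which stayed below 0. No paired analysis was possible because the groups share no array numbers.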
